A study of Mus musculus with 21 samples.

Results

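Glycolysis and hypoxia-response genes were followed across cytokine cultures of mouse CD4 T cells. The set was a list of 34 genes: 4 carriers of glucose and lactate, 17 enzymes of the path from glucose to lactate, 3 kinases that set the flow through it, and 10 genes of the oxygen-sensing system and its response. A listed gene was kept when its TPM (transcript abundance corrected for transcript length and scaled to a fixed library total) was at least 1 in at least 3 libraries, which held for 33 of the 34 genes, of 23415 genes in the deposited table and 9592 that passed the same limit. Vegfa, the gene of a vessel growth factor, was left out, as it reached a TPM of 1 in 0 of 16 libraries and was at most 0.41. Just inside the limit was Pfkfb4, which reached it in 6 libraries. The deposited table writes symbols in capitals (EGLN3, BNIP3, HK2, VEGFA), and mouse spelling is used here.

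All cells came from mice heterozygous for the Il23r eGFP allele (Il23r wt/eGFP), in which eGFP is read from the locus of the IL-23 receptor gene through an IRES. Per the labels that allele is also a functional knockout of Il23r, so cells of every group, controls included, had 1 working copy. Naive CD4 T cells from spleen and lymph nodes were stimulated for 5 days through CD3 and CD28, by antibodies fixed to the plate, in the presence of IL-12 (20 ng/ml), of IL-12 and IL-21 (20 ng/ml each), of IL-1b, IL-6 and IL-23 (20, 25 and 20 ng/ml), or of TGFb and IL-6 (2 and 25 ng/ml), and were then sorted into GFPpos and GFPneg cells. Age and strain background are not given in the labels. Of 21 libraries in 7 groups, the 16 with at least 7000 genes at a TPM of 1 or more were used: IL-12 GFPneg (2), IL-12+IL-21 GFPneg (2) and GFPpos (3), IL-1b+IL-6+IL-23 GFPneg (3) and GFPpos (3), and TGFb+IL-6 GFPneg (2) and GFPpos (1).

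Glycolysis splits glucose into pyruvate, and activated T cells send much of that pyruvate to lactate, which leaves the cell through monocarboxylate carriers. The transcription factor HIF-1 binds a short core motif near many of these genes. Its alpha subunit, encoded by Hif1a, is hydroxylated by the EGLN enzymes when oxygen is present and is then degraded. HIF-1 and the stimulation-induced factor Myc are both known to raise glycolytic transcripts in T cells, and Hif1a is known for its part in Th17 differentiation.

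The 16 libraries held 7522 to 9248 genes at a TPM of at least 1, and 33.2% to 44.4% of their TPM fell on ribosomal protein genes. Il23r, the sorted locus, was listed at 0 and 1.5 TPM in IL-12 GFPneg cells. It stood at 24.2 to 36.4 TPM in GFPpos against 3.04 to 6.36 in GFPneg cells of IL-12+IL-21, at 21.7 to 38.9 against 6.02 to 7.56 in the IL-1b+IL-6+IL-23 culture, and at 3.57 against 0.73 and 0.87 with TGFb+IL-6. All 9 CD4 T cell markers were detected, with a summed level of 1692 to 2983 TPM. The summed markers of other cells were low in each library: 0.04 to 1.35 TPM for 6 of B cells, 0.28 to 3.15 for 7 of myeloid and dendritic cells (mostly Cd68, to 2.52, and Cd14, to 1.37), 0 to 0.63 for 4 of natural killer cells, 0 to 1.35 for 4 of gamma-delta T cells and 0 to 1.05 for 6 of erythroid cells and neutrophils. The defining markers Pax5, Lyz2, Itgax and Ncr1 were listed at 0 throughout. Of the CD8 T cell markers, Cd8a reached at most 0.29 TPM, while Cd8b1 was at 4.89 to 17.54 TPM in the 16 libraries, highest in the TGFb+IL-6 GFPpos library; its part in the results was not tested. In bulk samples fewer cells expressing a gene and less RNA per cell cannot be told apart.

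The promoters of 4 members are shown because the results turn on them: Egln3, Bnip3 and Hk2 had the strongest differences among the groups, and Pgk1 had the weakest. Each runs 5′ to 3′ on the gene's strand from 250 bases before to 50 bases after the RefSeq start site (GRCm38.p6). Capitals mark the HIF core motif, ACGTG or GCGTG, on either strand (read as CACGT or CACGC on the opposite one; where 2 matches overlap they form CACGTG, which is also the core bound by Myc and Max).
Egln3: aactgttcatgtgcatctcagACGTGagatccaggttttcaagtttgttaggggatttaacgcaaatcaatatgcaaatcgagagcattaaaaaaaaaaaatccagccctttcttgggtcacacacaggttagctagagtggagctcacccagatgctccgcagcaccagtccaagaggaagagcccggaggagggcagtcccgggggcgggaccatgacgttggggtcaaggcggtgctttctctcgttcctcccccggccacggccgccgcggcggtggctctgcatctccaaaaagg
Bnip3: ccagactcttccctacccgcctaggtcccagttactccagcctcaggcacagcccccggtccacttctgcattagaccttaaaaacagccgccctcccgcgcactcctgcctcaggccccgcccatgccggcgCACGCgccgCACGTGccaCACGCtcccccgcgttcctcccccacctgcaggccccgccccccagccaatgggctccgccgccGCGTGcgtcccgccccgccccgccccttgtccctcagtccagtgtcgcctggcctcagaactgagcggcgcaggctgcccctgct
Hk2: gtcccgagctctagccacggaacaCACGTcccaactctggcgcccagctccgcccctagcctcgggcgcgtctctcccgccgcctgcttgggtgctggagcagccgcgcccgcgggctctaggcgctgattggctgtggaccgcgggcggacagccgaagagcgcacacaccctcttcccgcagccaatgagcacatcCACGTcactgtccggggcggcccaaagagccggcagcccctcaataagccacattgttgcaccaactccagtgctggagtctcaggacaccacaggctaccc
Pgk1: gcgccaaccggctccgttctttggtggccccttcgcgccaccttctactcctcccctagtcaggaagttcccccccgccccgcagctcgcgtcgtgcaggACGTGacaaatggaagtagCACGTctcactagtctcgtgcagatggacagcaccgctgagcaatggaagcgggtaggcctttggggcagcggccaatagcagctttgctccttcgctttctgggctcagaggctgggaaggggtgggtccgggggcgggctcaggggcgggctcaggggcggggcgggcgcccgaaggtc
The windows lie at chr12:54203825-54204124 (minus strand) for Egln3, chr7:138909457-138909756 (minus) for Bnip3, chr6:82774405-82774704 (minus) for Hk2 and chrX:106186850-106187149 (plus) for Pgk1. Bnip3 held the densest run, with the overlapping pair within CACGTG whose first bases lay 108 and 107 bases before the start, and 3 GCGTG matches. Egln3 held 1 ACGTG match, 229 bases before the start, and Hk2 and Pgk1 held 2 each. These 4 genes were picked by their F tests, and whether matches relate to differences among the groups was not tested.

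RefSeq windows were found for 31 of the 33 members, 46 windows in all. ACGTG occurred in 56.5% of the members' windows, against 26.7% of the windows of all genes tested and 19.6% of all 32851 windows of that length. GCGTG occurred in 54.3% of the members' windows, close to the 51.6% of all genes tested (32.4% of all windows). Many members are textbook HIF targets, so the ACGTG share describes how the list was composed, and a match is a run of letters, not a shown binding site.

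The 17 enzymes together took 2.75% to 4.12% of all TPM, and their levels spanned several orders of magnitude. Gapdh, glyceraldehyde phosphate dehydrogenase, was highest, with a median of 9689 TPM (7844 to 11504), followed by Ldha, the main lactate dehydrogenase subunit of activated T cells, at 6477 (5263 to 8373). Pkm (pyruvate kinase), Aldoa (aldolase) and Eno1 (enolase) had medians of 3871, 3525 and 3516 TPM. At the other end of the 17, Pfkm and Eno2 had medians of 2.405 and 3.71 TPM. Lowest among all members were Pfkfb4 and Mxi1, which are not among the 17, with medians of 0.80 and 1.34 TPM. These are levels per transcript length, so they can be compared between genes.

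A test of any difference among the 7 groups (limma on log2(TPM + 1), F test, Benjamini-Hochberg over all genes tested) called 12 of 33 members, where 24.9% of all genes tested were called. They were Egln3 (adjusted p = 7.96e-07), Bnip3 (2.8e-05), Hk2 (4.55e-05), Aldoc (0.000312), Eno2 (0.00724), Slc16a3 (0.00856), Mxi1 (0.00894), Ldhb (0.0108), Pkm (0.0239), Pgam1 (0.0264), Hif1a (0.0405) and Slc16a1 (0.0481). An unadjusted p under 0.05 was reached by 17 members. The share of all genes at that limit was not counted and is at least the 24.9% called, so the 17 are not read as a result. Without TGFb+IL-6 GFPneg replicate 2, 7 members were called, and with all 21 libraries, the 5 of low gene number included, 0 were. Of the 17 enzymes 6 were called and 11 were not. Pgk1, phosphoglycerate kinase, had the weakest difference, with an adjusted p of 0.945 and group means from 1518 ± 86.1 (SD, n = 3) to 1708 ± 304 TPM (SD, n = 3). The labels do not state whether replicates are separate animals or cultures; each p-value therefore reflects the spread among these libraries, which may be technical.

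**Figure D1:**
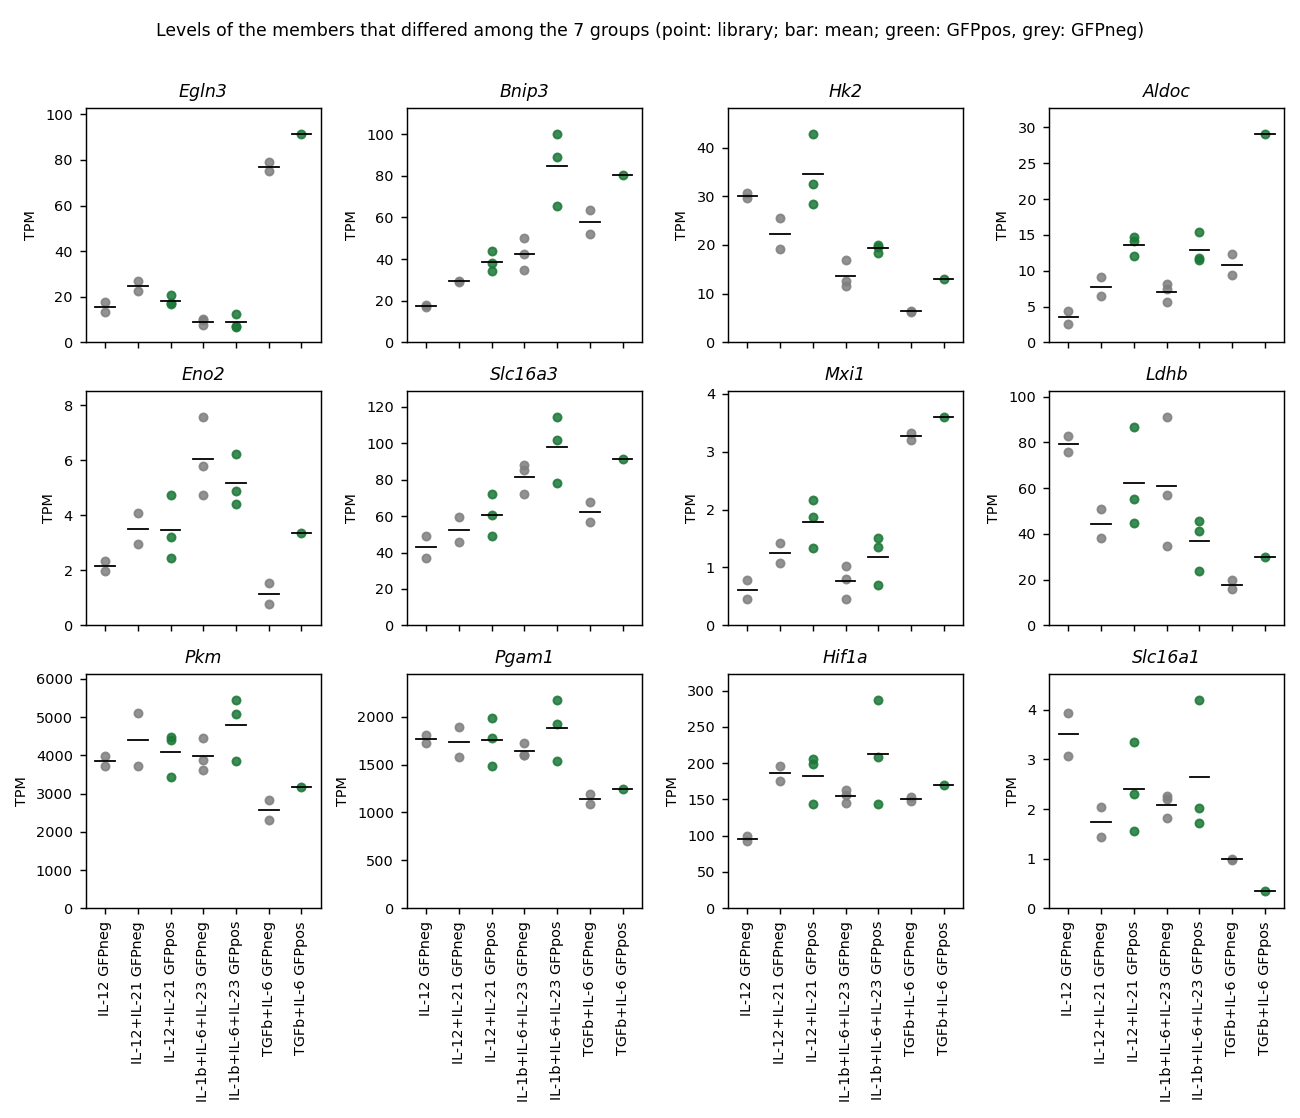
TPM of the 12 members called by the F test, in each of the 7 groups on the horizontal axis; points are libraries, bars are group means, green marks GFPpos and grey GFPneg cells. Egln3 and Mxi1 are highest in the 3 TGFb+IL-6 libraries, and Bnip3 is lowest in IL-12 cells.

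**Figure D2:**
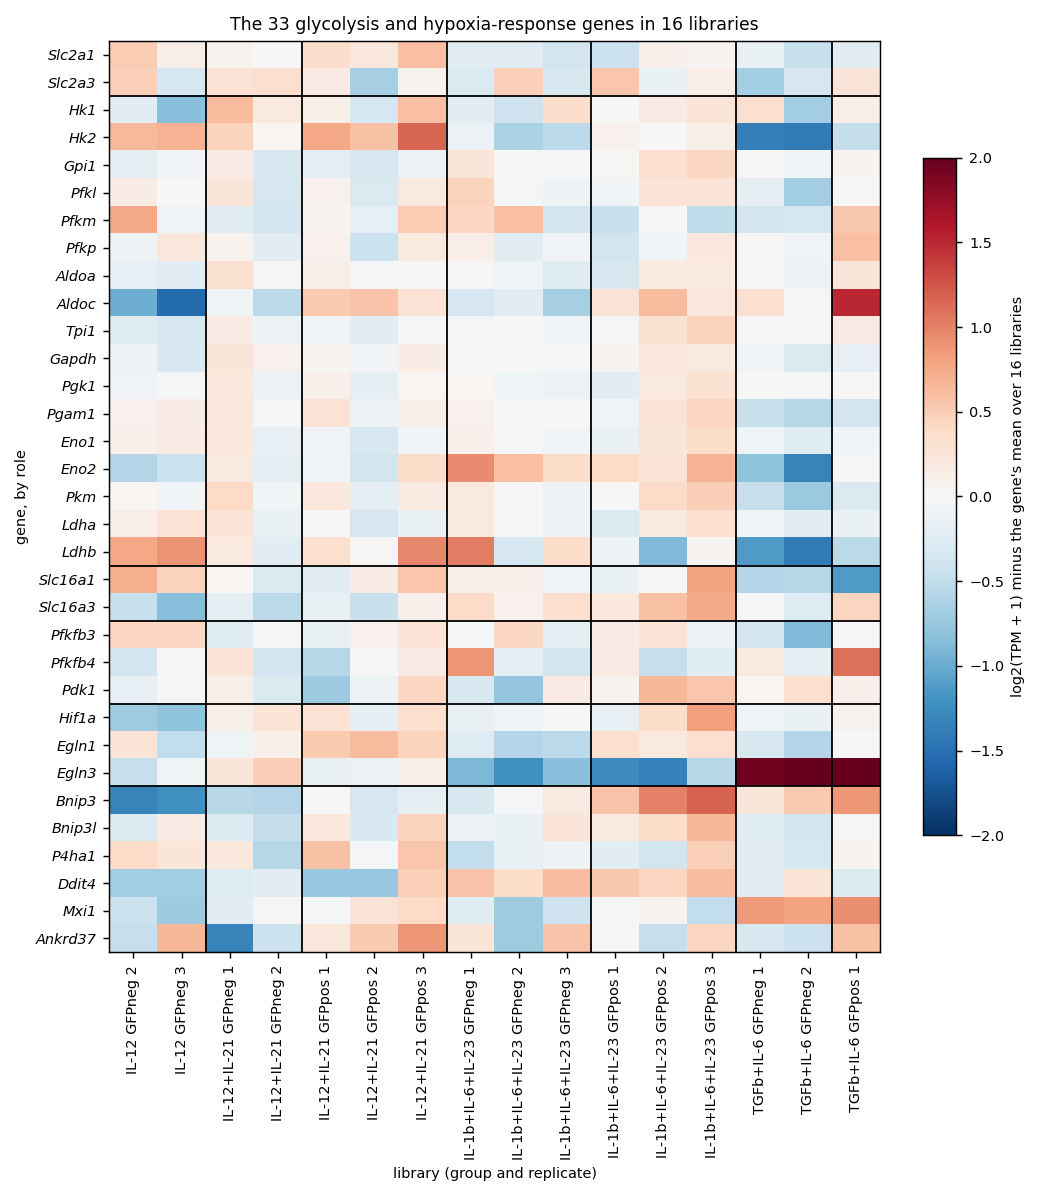
log2(TPM + 1) of each of the 33 genes minus its mean over the 16 libraries, with genes in rows by role and libraries in columns by group; the colours stop at 2 in both directions. The rows of Gapdh and Pgk1 stay pale, and those of Egln3, Bnip3, Hk2 and Aldoc carry the strongest colours.

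Among the carriers, the lactate exporter Slc16a3 differed among the groups and the glucose carrier Slc2a1 did not pass. Slc16a3 was at 48.99 and 36.83 TPM in IL-12 cells, at 45.88 to 72.21 in the 5 IL-12+IL-21 libraries, at 71.9 to 114.46 in the 6 IL-1b+IL-6+IL-23 libraries and at 56.56 to 91.64 in the 3 TGFb+IL-6 libraries. All libraries of IL-1b+IL-6+IL-23 and of TGFb+IL-6 lay above those of IL-12, while the ranges of every other pair of cultures overlapped. Slc16a1, the other lactate carrier, was at 3.94 and 3.07 TPM in IL-12 cells, at 0.98, 0.99 and 0.35 with TGFb+IL-6 and at 1.44 to 4.2 in the libraries of the other cultures. Its 3 TGFb+IL-6 libraries were the lowest of the 16, and at such levels the pseudocount of 1 shrinks any fold. Slc2a1, the main glucose carrier of activated T cells, ranged from 16.01 to 34.11 TPM with its highest values in IL-12 and IL-12+IL-21 GFPpos libraries (adjusted p = 0.0908). Slc2a3 stayed at 0.4 to 2.31 TPM.

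The hexokinases, which trap glucose in the cell, split. Hk2, the inducible form, was at 29.71 and 30.58 TPM in IL-12 GFPneg cells, at 25.56 and 19.13 in IL-12+IL-21 GFPneg and at 32.49, 28.38 and 42.75 in IL-12+IL-21 GFPpos cells. It was at 16.98, 11.56 and 12.58 in the IL-1b+IL-6+IL-23 GFPneg and 19.62, 18.43 and 20.09 in GFPpos cells. With TGFb+IL-6 it was at 6.53 and 6.29 in GFPneg cells and 13.04 in the GFPpos library. The order of cultures was thus IL-12 with or without IL-21 above IL-1b+IL-6+IL-23 above TGFb+IL-6 within each sort gate, with the highest group mean 5.39 times the lowest. Hk1, the constitutive form, ranged from 24.11 to 69.1 TPM without passing (adjusted p = 0.381).

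The phosphofructokinase subunits Pfkl, Pfkp and Pfkm catalyse the committed step, and none of the 3 passed. Pfkp and Pfkl were at similar levels (medians 83.9 and 71.0 TPM) and Pfkm was at 1.61 to 5.27 TPM. Gpi1, phosphoglucose isomerase, was at 215 to 356 TPM. Its highest values were in 2 of the GFPpos libraries with IL-1b+IL-6+IL-23 (at 337.61 and 356.4), but its groups overlapped (adjusted p = 0.258).

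Of the aldolases, Aldoa dominated and Aldoc varied. Aldoa was at 2820 to 4348 TPM in all libraries (adjusted p = 0.369). Aldoc was at 4.39 and 2.63 TPM in IL-12 cells, at 9.16 and 6.41 in IL-12+IL-21 GFPneg and at 14.22, 14.7 and 12.01 in IL-12+IL-21 GFPpos cells. It was at 7.4, 8.2 and 5.67 in the IL-1b+IL-6+IL-23 GFPneg and 11.75, 15.37 and 11.46 in GFPpos cells, and at 12.28 and 9.42 in TGFb+IL-6 GFPneg cells and 29.06 in the single GFPpos library. Its 2 IL-12 libraries were the lowest of the 16, and GFPpos libraries were above GFPneg libraries of the same culture each time. The reference annotation holds 2 adjacent genes named Aldoa on chromosome 7, and the table gives 1 row, so how reads were assigned between them is uncertain.

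In the lower part of the path, Pgam1 (phosphoglycerate mutase), Pkm and Eno2 shared a low point in TGFb+IL-6 GFPneg cells. Pgam1 was at 1187 and 1091 TPM there, at 1246 in TGFb+IL-6 GFPpos cells and at 1489 to 2174 in the other 13 libraries, with no overlap. Pkm was at 2818, 2318 and 3162 TPM in the 3 TGFb+IL-6 libraries and at 3422 to 5447 in the others, again with no overlap. The calls of Pgam1 and Pkm in the TGFb+IL-6 GFPneg comparisons below were lost with median-ratio scaling. Eno2, the neuronal enolase, a minor form here, was at 1.55 and 0.76 TPM in TGFb+IL-6 GFPneg cells and at 7.57, 5.79 and 4.73 in the IL-1b+IL-6+IL-23 GFPneg cells, and the major form Eno1 did not pass (adjusted p = 0.364). Tpi1 (triose phosphate isomerase) and Gapdh had adjusted p-values of 0.109 and 0.0675. Eno2, Tpi1 and Gapdh are neighbours on chromosome 6 (124760053 to 125166467 in the reference annotation).

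Lactate dehydrogenase showed the same split between a dominant and a minor form. Ldha, at 5263 to 8373 TPM, did not pass (adjusted p = 0.435). Ldhb was at 75.93 and 82.79 TPM in IL-12 cells and at 19.61 and 15.85 in TGFb+IL-6 GFPneg cells, and within IL-1b+IL-6+IL-23 GFPneg cells alone it ran from 34.72 to 91.08. That range overlapped those of all groups but TGFb+IL-6, so Ldhb is less firmly placed between the extremes.

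The 3 regulatory kinases were weakly expressed and none passed. Pfkfb3 and Pfkfb4, which set the level of an activator of phosphofructokinase, were at 0.38 to 2.4 and 0.28 to 3.11 TPM. Pdk1, which restrains pyruvate entry into mitochondria, was at 2.04 to 7.21 TPM, with adjusted p = 0.513.

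The oxygen-sensing genes held the strongest pattern of the set. Egln3, a HIF prolyl hydroxylase that is itself a HIF target, was at 75.04 and 78.92 TPM in TGFb+IL-6 GFPneg and 91.31 in GFPpos cells. It was at 13.48 and 17.83 in IL-12 cells, at 22.54 and 26.98 in IL-12+IL-21 GFPneg and at 16.92, 17.29 and 20.85 in IL-12+IL-21 GFPpos cells. It was lowest with IL-1b+IL-6+IL-23, at 9.68, 7.53 and 10.12 in GFPneg and 7.23, 6.78 and 12.4 in GFPpos cells. The 3 TGFb+IL-6 libraries stood apart from all others, the IL-1b+IL-6+IL-23 libraries lay below every other group, and the highest group mean was 10.4 times the lowest. Egln1, the main HIF hydroxylase in most tissues, was at 0.75 to 3.1 TPM and just missed the threshold (adjusted p = 0.0524).

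Hif1a itself was lowest in IL-12 cells. Its values there were 99.06 and 92.92 TPM, against 143.55 to 287.04 in the 14 other libraries, with no overlap. The ranges of the other 3 cultures overlapped one another. This is the transcript; the HIF-1 alpha protein, which oxygen sets, was not measured.

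Among the remaining response genes, Bnip3 and Mxi1 passed. Bnip3, a mitochondrial protein that marks mitochondria for removal, was at 16.81 and 18.19 TPM in IL-12 cells, at 29.54 and 28.94 in IL-12+IL-21 GFPneg and at 43.74, 34.45 and 38.3 in IL-12+IL-21 GFPpos cells. It was at 34.92, 42.45 and 49.92 in the IL-1b+IL-6+IL-23 GFPneg and 65.24, 89.02 and 99.95 in GFPpos cells, and at 52.07, 63.53 and 80.2 in TGFb+IL-6 GFPneg (2) and GFPpos cells. IL-12 cells were lowest, IL-12+IL-21 GFPneg cells next, and the other groups higher with overlaps among them. Its relative Bnip3l did not pass (23.15 to 52.68 TPM). Mxi1, an antagonist of Myc that pairs with Max, was at 3.33, 3.2 and 3.6 TPM in the 3 TGFb+IL-6 libraries and at 0.45 to 2.16 in the others, with no overlap. Ddit4, an inhibitor of mTORC1 signalling, had its 6 IL-1b+IL-6+IL-23 libraries at 3.14 to 3.91 TPM and missed the threshold (adjusted p = 0.0576), as did P4ha1, a subunit of collagen prolyl hydroxylase, and Ankrd37.

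Between GFPneg cells of TGFb+IL-6 and of IL-1b+IL-6+IL-23, 2 cultures that are both used to obtain Th17 cells, the hypoxia-response genes Egln3 and Mxi1 rose and 5 enzymes of the path fell. The test called 7 of 33 members, where 15.4% of all genes tested were called (4.83% higher and 10.6% lower). Egln3 rose by 2.96 ± 0.25 (log2 of TPM + 1, with SE; adjusted p = 8.74e-07), and Mxi1 by 1.29 ± 0.28 (0.00483). Eno2 fell by 1.71 ± 0.30 (0.000989), Ldhb by 1.63 ± 0.36 (0.00621), Hk2 by 0.97 ± 0.23 (0.00919), Pkm by 0.63 ± 0.17 (0.0223) and Pgam1 by 0.53 ± 0.15 (0.03). The libraries of both groups did not overlap for any of the 7. The test picked these genes from the same libraries, so this only describes the calls, and the share over all genes was not counted. Of the 4 carriers, 0 were called and all 4 had changes below 0, as did 6401 of all 9592 genes tested.

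The members' median change was -0.17, against -0.23 over all genes tested, of which 463 of 1478 called were higher. Median-ratio scaling moved the median of all genes to -0.01 and that of the members to 0.13, with 835 of 1564 calls higher, and under it Pkm and Pgam1 were not called. Without TGFb+IL-6 GFPneg replicate 2, Hk2, Ldhb, Pkm and Pgam1 were not called; Pkm was also lost without IL-1b+IL-6+IL-23 GFPneg replicate 1, and Pgam1 without any 1 of the 5 libraries compared. The TGFb+IL-6 GFPneg libraries had the largest share of TPM on ribosomal protein genes (44.1% and 44.4%), and the part of that in the lower enzyme values was not tested.

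Against IL-12+IL-21 GFPneg cells, TGFb+IL-6 GFPneg cells gave 5 of 33 members, where 6.82% of all genes tested were called. Both comparisons use the same 2 TGFb+IL-6 libraries. Hk2 fell by 1.64 ± 0.25 (adjusted p = 0.000494), Pkm by 0.77 ± 0.19 (0.0219) and Pgam1 by 0.60 ± 0.17 (0.0417), and Egln3 rose by 1.60 ± 0.28 (0.00139) and Bnip3 by 0.95 ± 0.24 (0.0211). Ldhb (-1.27 ± 0.40, adjusted p = 0.0696), Eno2 (-1.08 ± 0.33, 0.0624) and Mxi1 (0.93 ± 0.30, 0.0839) missed the threshold. The members' median was -0.19 and that of all genes -0.21, with 193 of 654 calls higher; with median-ratio scaling 405 of 770 were higher, and Pkm and Pgam1 were not called. Pgam1 was lost without any 1 of the 4 libraries, Bnip3 without TGFb+IL-6 replicate 2 or either IL-12+IL-21 library, and Pkm without TGFb+IL-6 replicate 2 or IL-12+IL-21 replicate 1.

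**Figure D3:**
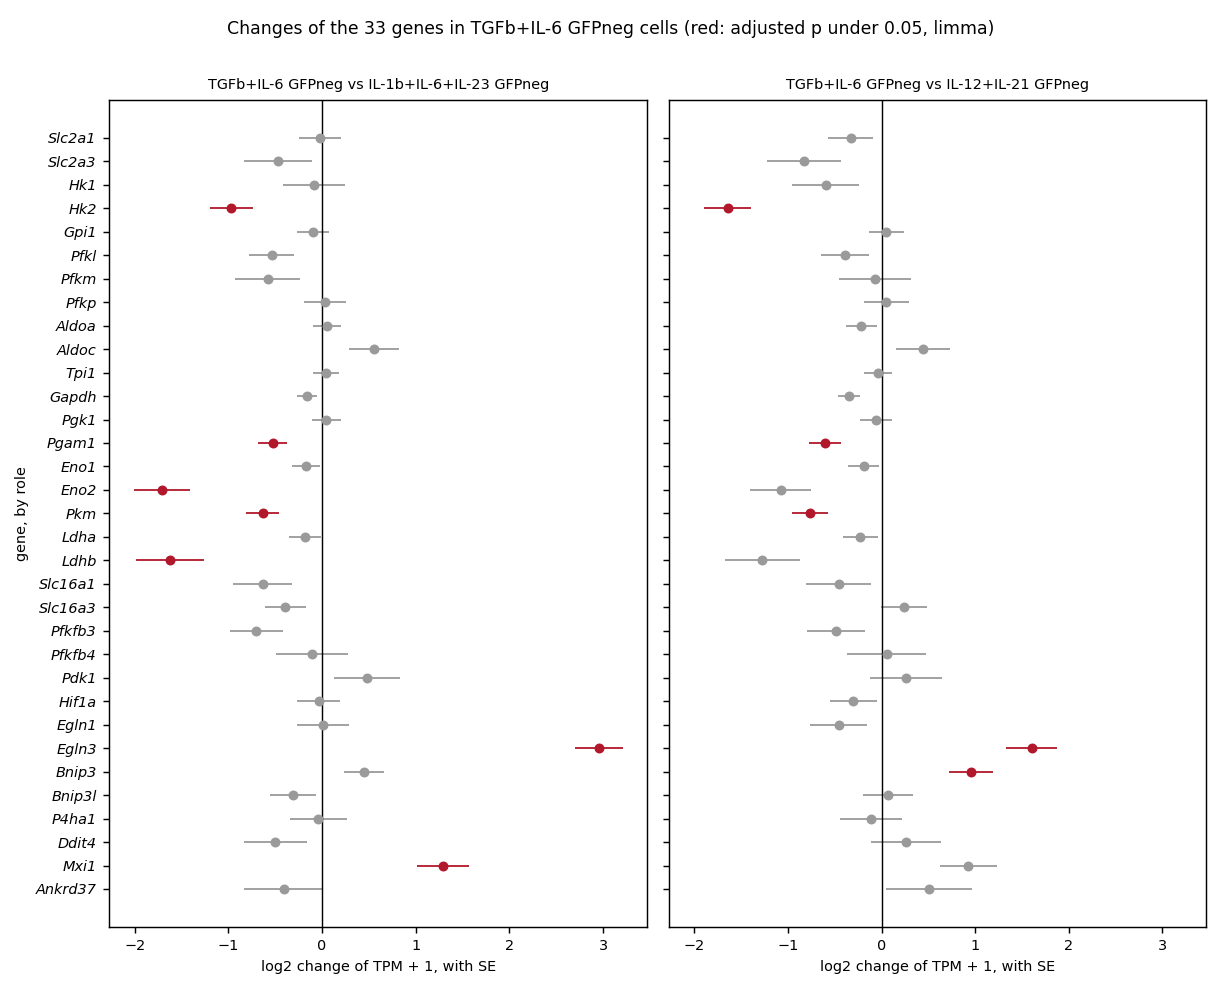
log2 change of TPM + 1 with its SE (horizontal axis) for the 33 genes in TGFb+IL-6 GFPneg cells (n = 2), against IL-1b+IL-6+IL-23 GFPneg cells (left, n = 3) and IL-12+IL-21 GFPneg cells (right, n = 2); red marks an adjusted p under 0.05. Egln3 lies far to the right in both panels (2.96 and 1.60) and Hk2 to the left (-0.97 and -1.64), and both panels share the TGFb+IL-6 libraries.

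Between GFPneg cells from IL-1b+IL-6+IL-23 and from IL-12 alone, the comparison of a Th17 with a Th1 culture, Bnip3, Ddit4, Slc16a3 and Eno2 rose and Hk2 fell. The test called 5 of 33 members, where 7.01% of all genes tested were called (2.71% higher and 4.3% lower). Bnip3 rose by 1.22 ± 0.22 (adjusted p = 0.00201), Ddit4 by 1.21 ± 0.34 (0.0407), Eno2 by 1.15 ± 0.30 (0.0293) and Slc16a3 by 0.92 ± 0.22 (0.0181), and Hk2 fell by 1.10 ± 0.23 (0.00705). The libraries of both groups did not overlap for any of the 5. That again only describes genes picked from these libraries, and the share over all genes was not counted. Of the 6 tested response genes outside oxygen sensing, 2 rose and 0 fell, and Egln3 was at -0.72 without being called. The members' median change was -0.01, beside -0.09 for all genes. Over all genes 260 of 672 calls were higher, and 395 of 729 with median-ratio scaling. Without IL-12 GFPneg replicate 3, Hk2, Slc16a3, Eno2 and Ddit4 were not called. Ddit4 was lost without any 1 of the 5 libraries compared, Eno2 also without IL-12 replicate 2 or IL-1b+IL-6+IL-23 replicates 1 or 2, and Slc16a3 also without IL-1b+IL-6+IL-23 replicates 1 or 3.

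Within the comparison of IL-1b+IL-6+IL-23 with IL-12+IL-21, the GFPneg cells gave 1 of 33 members, Egln3, which fell by 1.35 ± 0.25 (adjusted p = 0.00513; 3.41% of all genes tested were called). Without IL-12+IL-21 GFPneg replicate 2 it was not called. The GFPpos cells gave 3 of 33 members, where 4.96% of all genes were called. Egln3 fell by 1.02 ± 0.23 (0.0117) and Hk2 by 0.78 ± 0.21 (0.0357), and Bnip3 rose by 1.09 ± 0.19 (0.0021). Each of these 3 genes had groups that did not overlap. That is a description of genes picked from the same libraries, and the share over all genes was not counted. With median-ratio scaling 6 members were called, Slc16a3, Gpi1 and Ddit4 being higher as well, and the share of higher calls over all genes went from 132 of 476 to 227 of 481. The Hk2 call was lost without any one of IL-1b+IL-6+IL-23 GFPpos replicates 1, 2 and 3 and IL-12+IL-21 GFPpos replicates 1 and 3, and the Egln3 call without GFPpos replicates 1 or 2 of IL-1b+IL-6+IL-23 or replicate 3 of IL-12+IL-21.

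Adding IL-21 to IL-12 called 0 of 33 members in GFPneg cells with limma, where 0.761% of all genes tested were called (73 genes, 30 of them higher; 38 of 61 higher with median-ratio scaling). An unadjusted p under 0.05 was reached by 8 of 33 members, beside 1311 of all 9592 genes tested. The clearest of them were Hif1a (0.95 ± 0.25, adjusted p = 0.101), Aldoc (0.97 ± 0.29, 0.138), Gapdh (0.37 ± 0.12, 0.169) and Bnip3 (0.71 ± 0.24, 0.185). With median-ratio scaling Hif1a was called, at 1.08 and an adjusted p of 0.047, and with quantile normalization at 1.21 and 0.0209. The median change of the members was 0.09, beside -0.09 for all genes.

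Sorting on eGFP within a culture gave few calls. In IL-1b+IL-6+IL-23, 1 of 33 members was called, where 0.427% of all genes tested were called. It was Bnip3, which rose by 0.97 ± 0.19 (adjusted p = 0.0359) from 42.4 ± 7.50 to 84.7 ± 17.7 TPM (SD, n = 3 each). With Bnip3, 26 of 33 members had changes above 0, beside 5760 of all 9592 genes tested. Of the 33 members, 6 had an unadjusted p under 0.05, beside 809 of all genes tested. The members' median was 0.18 beside 0.07 for all genes (33 of 41 calls higher, and 26 of 39 with median-ratio scaling). The Bnip3 call was lost in 10 of 16 alternatives, among them median-ratio scaling and leaving out GFPneg replicates 1 or 2 or GFPpos replicates 2 or 3.

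In IL-12+IL-21 the test called 0 of 33 members (0.156% of all genes tested, with 11 of 15 calls higher, and 3 of 9 with median-ratio scaling). An unadjusted p under 0.05 was reached by 3 of 33 members, beside 1392 of all 9592 genes tested. The 3 were Aldoc (0.75 ± 0.26), Ankrd37 (1.42 ± 0.42) and Hk2 (0.60 ± 0.23). In TGFb+IL-6 the test called 0 of 33 members (0.323% of all genes tested, 25 of 31 calls higher, 7 of 19 with median-ratio scaling). That culture had 1 GFPpos library, whose spread is assumed to be that of the other groups. There 4 of 33 members had an unadjusted p under 0.05, beside 1617 of all 9592 genes tested. The 4 were Aldoc (1.35 ± 0.35), Pfkfb4 (1.11 ± 0.52), Eno2 (1.04 ± 0.40) and Hk2 (0.92 ± 0.31). The GFP effect differed between cultures for 0 of 33 members in each of 3 interaction tests, where 0%, 0.0104% and 0.0834% of all genes were called. At an unadjusted p under 0.05 there were 3 of 33 members for IL-1b+IL-6+IL-23 minus IL-12+IL-21, beside 474 of all 9592 genes tested.

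Because Aldoc and Hk2 recurred, the mean GFP effect over the 3 cultures was tested as well, a contrast chosen after these values were seen. For Aldoc and Hk2 it restates that observation, so their values are a description and no p is given. It put 3 of 33 members past the threshold, these among them, where 7.39% of all genes tested were called (6.76% higher and 0.636% lower). Aldoc was higher by 0.96 ± 0.17 and Hk2 by 0.67 ± 0.15. Bnip3 rose by 0.61 ± 0.14, which reuses the IL-1b+IL-6+IL-23 libraries in which it was called above and is likewise a description. Egln1 (0.57 ± 0.17) missed the threshold. These 4 genes had GFPpos libraries above all GFPneg libraries of the same culture in each of the 3 cultures, and 0 members lay below. Over all genes tested, 3.71% lay above in this way and 0.448% below. This rule was also set after the data were seen.

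Of the 709 genes called over the whole table, 648 were higher in GFPpos cells, and the median of all genes was 0.23 beside 0.18 for the members. With median-ratio scaling 121 of 337 were higher and the members' median was -0.06, and Bnip3 was not called (adjusted p = 0.195). GFPpos libraries also held more genes at a TPM of at least 1 than GFPneg libraries of the same culture, in each culture: 8460 to 9248 against 8214 and 8353, 8362 to 8527 against 7912 to 8330, and 8715 against 7522 and 8053. The part of that difference in these 4 genes was not tested.

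**Figure D4:**
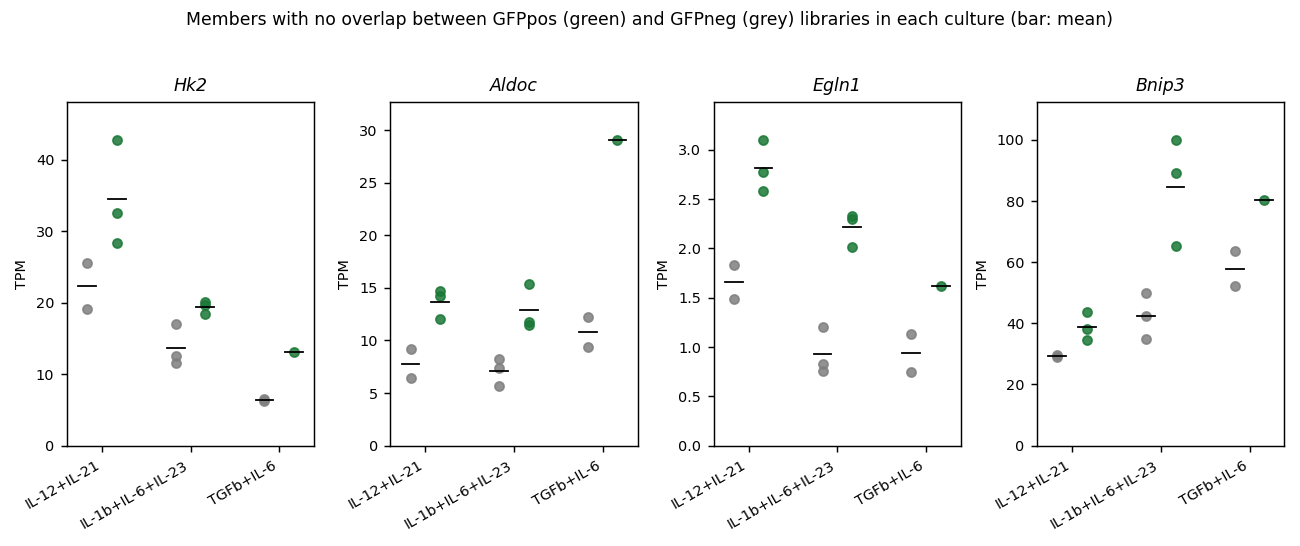
TPM of Hk2, Aldoc, Egln1 and Bnip3 in GFPneg (grey) and GFPpos (green) libraries of the 3 cultures on the horizontal axis; points are libraries and bars are means. In each panel and culture the green points lie above the grey ones, the TGFb+IL-6 GFPpos group being 1 library.

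Ratios of related genes within a library do not depend on its scaling factor, and are given as a description. Hk2 over Hk1 was 1.03 ± 0.337 in IL-12 cells (SD, n = 2), 0.714 ± 0.0975 in IL-12+IL-21 GFPpos cells (n = 3) and 0.176 ± 0.0825 in TGFb+IL-6 GFPneg cells (n = 2), so the inducible form went from about equal with the constitutive one to the minor form. Bnip3 over Bnip3l was 0.568 ± 0.0932 in IL-12 cells (n = 2), 1.28 ± 0.129 and 1.91 ± 0.182 in GFPneg and GFPpos cells with IL-1b+IL-6+IL-23 (n = 3 each), then 2.22 ± 0.450 in TGFb+IL-6 GFPneg cells (n = 2). Bnip3 was thus below Bnip3l in both IL-12 libraries and above it in every library with TGFb+IL-6 or with IL-1b+IL-6+IL-23. With IL-12+IL-21 the ratio was 1.18 ± 0.105 in GFPneg cells (n = 2) and 1.11 ± 0.235 in GFPpos cells (n = 3, 0.853 to 1.31), close to the IL-1b+IL-6+IL-23 GFPneg value.

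Aldoa over Aldoc was 928 ± 306 in IL-12 cells (n = 2) and 143 in the TGFb+IL-6 GFPpos library, and was lower in GFPpos than in GFPneg libraries of every culture. Ldha over Ldhb was 97.3 ± 1.31 in IL-12 cells and 340 ± 28.2 in TGFb+IL-6 GFPneg cells (n = 2 each). Slc16a3 over Slc16a1 was 12.2 ± 0.309 in IL-12 cells and 63.0 ± 8.36 in TGFb+IL-6 GFPneg cells (n = 2 each), and the single TGFb+IL-6 GFPpos library, at 262, stood apart because its Slc16a1 value was only 0.35 TPM. Pfkp over Pfkl stayed between 0.947 and 1.85 in all 16 libraries.

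**Figure D5:**
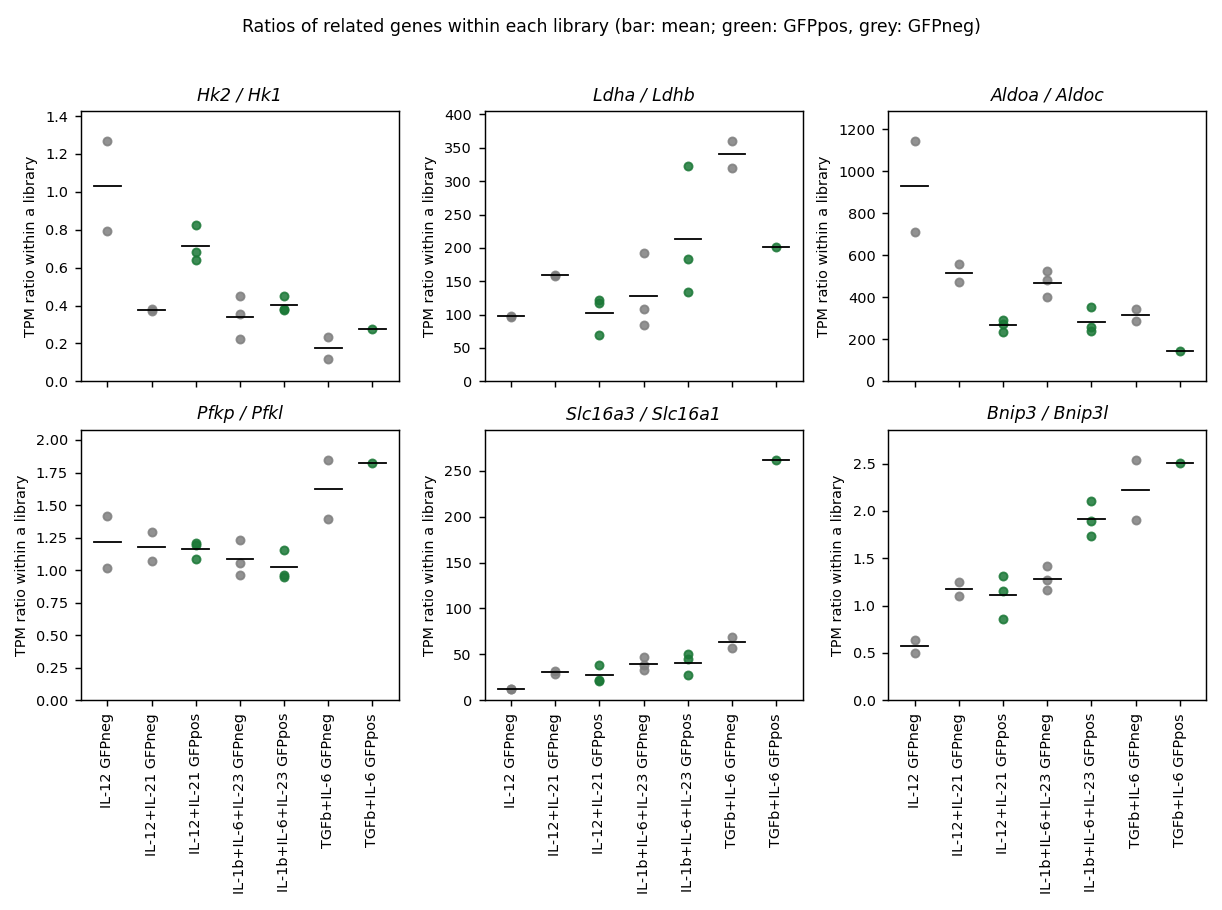
Ratio of the TPM of 2 related genes within each library (vertical axes start at 0) for 6 pairs, by group; bars are means, green marks GFPpos and grey GFPneg cells. Hk2/Hk1 is highest in IL-12 cells and Bnip3/Bnip3l is highest with TGFb+IL-6.

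Other genes of the pathway were taken from lists by function. Of 28 other HIF target genes tested, the F test called 9, and of 11 genes of the HIF machinery 2, where 24.9% of all genes tested were called. Hilpda, a lipid droplet protein (F test adjusted p = 2.76e-06), was at 66.1 to 76.5 TPM in IL-1b+IL-6+IL-23 GFPneg cells and 15.6 to 19.0 in TGFb+IL-6 GFPneg cells, a fall of 1.98 ± 0.21 (adjusted p = 1.13e-05). Ndrg1, a stress-response gene, was at 34.6 to 43.4 and 6.15 to 7.61 TPM in the same groups, a fall of 2.38 ± 0.28 (2.22e-05). So these HIF targets were low in the same libraries in which Egln3 and Mxi1 were high. In that comparison 0 of the 28 other HIF targets rose and 6 fell, with a median of -0.32, beside 4.83% and 10.6% of all genes tested and their median of -0.23.

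Rora, an orphan nuclear receptor of Th17 cells, differed from Egln3 in its order. It was at 1.56 and 1.69 TPM in IL-12 cells, at 9.57 to 13.2 in the IL-1b+IL-6+IL-23 GFPneg and at 7.84 and 9.03 in TGFb+IL-6 GFPneg cells. Fam162a, a mitochondrial protein, rose by 0.48 ± 0.10 in the mean GFP effect, the contrast chosen after the data were seen. The median of all genes tested was 0.23 in it, and the part of scaling in the Fam162a value was not tested. In the HIF machinery, Cited2, which competes with HIF-1 for its coactivators, was at 0 to 2.93 TPM, and Vhl, which targets hydroxylated HIF-1 alpha for degradation, was at 3.16 to 12.1 TPM.

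Of 18 tested regulators of glycolytic genes in T cells, the F test called 7 (24.9% of all genes tested). Myc was at 152 to 194 TPM in IL-1b+IL-6+IL-23 GFPneg, 177 and 221 in IL-12+IL-21 GFPneg and 74.8 and 89.1 in TGFb+IL-6 GFPneg cells. It fell by 1.10 ± 0.19 (adjusted p = 0.000849) and 1.26 ± 0.21 (0.000972) in the TGFb+IL-6 comparisons with them, the same libraries in which its antagonist Mxi1 was highest. Irf4, a factor induced by T cell receptor signalling, was at 13.0 to 15.5 TPM in IL-1b+IL-6+IL-23 GFPneg cells and at 36.1 to 61.5 in the GFPneg cells of the other 3 cultures, without overlap. Max, the partner of Myc and Mxi1, was at 11.0 and 24.5 TPM in IL-12 cells and 1.69 to 7.97 elsewhere. Sesn2, a stress-induced inhibitor of mTORC1, was at 14.2 and 19.4 TPM in IL-12 and 3.74 and 5.81 in TGFb+IL-6 GFPneg cells.

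Of 28 other enzymes and carriers of glycolysis and pyruvate entry, the F test called 6 (24.9% of all genes tested). Bsg, the chaperone of the lactate carriers, was at 1126 to 1232 TPM in IL-1b+IL-6+IL-23 GFPneg and 623 and 641 in TGFb+IL-6 GFPneg cells, a fall of 0.92 ± 0.15 (adjusted p = 0.00049). Slc2a6, a glucose carrier family member, was highest with IL-1b+IL-6+IL-23, at 37.6 to 67.0 TPM over both gates against 8.3 to 36.4 elsewhere. Eno3, the muscle enolase, was at 10.8 and 19.8 TPM in IL-12 cells and 0.98 to 4.42 in all other libraries. Got1, of the malate-aspartate shuttle, was at 44.1 and 44.6 TPM in IL-12 cells and 76.1 to 105 in the IL-1b+IL-6+IL-23 GFPneg cells.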

How the data were processed

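Bulk RNA from 21 sorted CD4 T cell samples was sequenced after a modified SMART-Seq2 preparation, per the labels' protocols. The authors deposited 1 table of TPM values per gene symbol, in which each library sums to the same total; Trimmomatic 0.32, Bowtie2 2.2.9, RSEM 1.2.31 and the build GRCm38 are named in the submitters' processing notes, and their settings, the annotation and the use of strand are not given in the sources used here. TPM keeps no depth, so no counting intervals could be given, and an increase of abundant transcripts lowers the rest. All columns were matched to samples by name (0 were left over). Near copies (Aldoa with Aldoart1, Eno1 with Eno1b) may share reads.

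The 16 libraries with at least 7000 genes at a TPM of 1 or more entered one fit of log2(TPM + 1) on the group means (limma 3.58.1, R 4.3.3), with empirical Bayes moderation, a mean-variance trend and without a block. The test covered genes that reached a TPM of 1 in 3 or more of these libraries, and p-values were adjusted by Benjamini-Hochberg over all 9592 genes in each comparison, with 0.05 as the threshold. There were 1 F test, 9 pairwise comparisons, 3 interactions and 1 mean GFP effect. Fold changes on this scale understate changes of low genes. The scripts were tested on simulated data. All members could be named, and up to 4 genes of each other list with the smallest F test p past the threshold. The members and lists were chosen with earlier results of these data known. The alternatives used a pseudocount of 0.1 or 5, dropped the filter or raised it to 5 TPM, rescaled by median ratios or quantiles, used all 21 libraries or those compared only, added a replicate block, dropped the trend, and left out each library. Promoter windows and gene positions came from RefSeq and GENCODE M21 tables of the same build.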

Additional observations from a re-analysis of the deposited data

Results flagged for a closer look

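The 5 libraries left out for low gene numbers held members above the highest of the 16 libraries used, and these values, in TPM, are given without an explanation. In IL-12 GFPneg replicate 1 (4109 genes at a TPM of 1 or more), Hk2 stood at 642.19, and in TGFb+IL-6 GFPpos replicate 2 (5608 genes) at 176.77, against at most 42.75 in the libraries used. In TGFb+IL-6 GFPpos replicate 3 (1157 genes), Slc2a1 was 141.26, Hk2 63.28, Pfkp 262.89, Bnip3l 110.5 and P4ha1 87.4. In TGFb+IL-6 GFPneg replicate 3 (190 genes), Hk1 was 842.38, Gpi1 2479.2, Pfkp 869.58, Aldoa 5269.05, Pkm 5966.39 and Ldha 11355.5. In IL-12+IL-21 GFPneg replicate 3 (1331 genes), Hk2 was 75.95, Gpi1 374.16, Aldoa 4579.6, Gapdh 13439, Pgk1 2455.07, Eno1 5566.26, Egln1 60.51, Egln3 162.03 and Bnip3l 66.18. Hk2 thus exceeded the range of the 16 libraries in 4 of the 5.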

How the results depend on the processing

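With all 21 libraries limma called no member in any comparison: 0 instead of 12 in the F test, 0 instead of 7 and 5 for TGFb+IL-6 GFPneg against IL-1b+IL-6+IL-23 GFPneg and IL-12+IL-21 GFPneg, 0 instead of 5, 1 and 3 in the 3 comparisons of IL-1b+IL-6+IL-23 with the IL-12 cultures, 0 instead of 1 for its GFP effect and 0 instead of 3 for the mean GFP effect. Egln3 in TGFb+IL-6 against IL-12+IL-21 GFPneg cells then turned to -1.38 (reported as 1.60, and 1.47 to 1.91 under its other alternatives). Median-ratio scaling and quantile normalization each called 1 member instead of 0 for IL-12+IL-21 against IL-12, 3 instead of 1 for IL-1b+IL-6+IL-23 against IL-12+IL-21 GFPneg cells and 6 instead of 3 for the GFPpos cells. The GFP effect with IL-1b+IL-6+IL-23 went from 1 to 0 with a pseudocount of 0.1, no filter, median-ratio scaling, only the libraries compared, and no trend, and TGFb+IL-6 against IL-12+IL-21 from 5 to 3 with no filter; the cause was not tested. Leaving out 1 library gave 7 to 13 in the F test (7 without TGFb+IL-6 GFPneg replicate 2), 3 to 6 and 2 to 4 in the TGFb+IL-6 comparisons, 1 to 3 for IL-1b+IL-6+IL-23 against IL-12, 0 to 1 and 1 to 3 against IL-12+IL-21 GFPneg and GFPpos cells, 0 to 1 for its GFP effect and 3 to 4 for the mean GFP effect; the other counts were 0 each time. Samples share replicate numbers without a stated pairing: deviations of the 31 same-numbered pairs correlated at -0.086 to 0.265, with 8 of the 31 over 0.1, against 2 of 62 pairs of different number. In no comparison of groups with 3 such pairs were all over 0.1, though those of IL-12+IL-21 GFPpos and the IL-1b+IL-6+IL-23 GFPneg cells, which were not compared, were. Among compared groups with 2 such pairs, both were over 0.1 for IL-12+IL-21 GFPpos against GFPneg (0.156 and 0.116). The same held for IL-1b+IL-6+IL-23 against IL-12+IL-21 GFPneg cells (0.202 and 0.125). The Egln3 call of that comparison was kept with the replicate block, as was the Bnip3 call of the GFP effect with IL-1b+IL-6+IL-23. With the replicate block the counts were 12 in the F test, 1 for IL-12+IL-21 against IL-12 (Hif1a, adjusted p = 0.0398), 6 for IL-1b+IL-6+IL-23 against IL-12, and 7 for both TGFb+IL-6 comparisons. Leaving out the single TGFb+IL-6 GFPpos library could not be fitted for the tests that need it. With 3 groups of 2 libraries and 1 group of 1, small changes can be missed; TPM hides depth, and values near 1 TPM are compressed by the pseudocount.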

Other observations

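Beside the path from glucose to lactate, the F test (limma, adjusted p under 0.05, which 24.9% of all genes tested reached) called 4 of 8 genes of the pentose phosphate pathway, 3 of 8 of the serine and one-carbon branch and 8 of 19 of the tricarboxylic acid cycle. Phgdh, the first enzyme of serine synthesis from a glycolytic intermediate, was lower in GFPpos cells: 99.3 to 135 against 192 and 252 TPM in IL-12+IL-21, 85.5 to 159 against 191 to 207 with IL-1b+IL-6+IL-23 cytokines, and 119 against 222 and 236 in TGFb+IL-6, with no overlap in any culture. Its mean GFP effect, in the contrast chosen after the data were seen, was a fall of 0.88 ± 0.14. Shmt2, a mitochondrial enzyme of the same branch, fell by 0.55 ± 0.16 in it, and Shmt1 was highest in IL-12 cells (17.5 and 22.2 TPM). Prps1, which makes the ribose donor of nucleotides, fell by 0.59 ± 0.16 in the mean GFP effect. G6pdx, the entry enzyme of the pentose phosphate pathway, rose by 0.59 ± 0.16, and the part of scaling in these values was not tested. In the serine branch 0 genes rose and 2 fell in this contrast, with a median of -0.33, beside 6.76% and 0.636% of all genes tested and their median of 0.23.

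Against IL-12 cells, all 19 tricarboxylic acid cycle genes had changes below 0 in IL-12+IL-21 GFPneg cells (median -0.44) and in the IL-1b+IL-6+IL-23 GFPneg cells (median -0.28), comparisons that share the IL-12 libraries; over all 9592 genes tested 5565 and 5573 were below 0, with a median of -0.09 in both. In the first, limma called 0 of the 19 (7 at an unadjusted p under 0.05), and in the second 2 fell, where 4.3% of all genes tested did, among them Suclg1 (128 and 133 against 60.4 to 74.2 TPM, -0.95 ± 0.16, adjusted p = 0.00124). In TGFb+IL-6 against IL-1b+IL-6+IL-23 GFPneg cells 2 of the 19 rose and 3 fell, beside 4.83% and 10.6% of all genes tested. Among them, Idh2, a mitochondrial isocitrate dehydrogenase, rose by 0.82 ± 0.23 (0.0235), and Mdh2, malate dehydrogenase, fell by 0.66 ± 0.17 (0.0156). In the pentose phosphate pathway, Pgd fell by 0.73 ± 0.19 (0.0174) in that comparison, and Rpe was lower in IL-1b+IL-6+IL-23 GFPneg than in IL-12 cells (-0.91 ± 0.25, 0.0404).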
